A study of Mus musculus with 9 samples.

Results

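GABA receptors mediate most fast and much slow inhibition in the mature forebrain, and 7 of their subunit genes were followed through newborn mouse brain. The genes encode alpha subunits (Gabra2, Gabra3, Gabra4 and Gabra5) and a beta subunit (Gabrb2) of the ionotropic GABA-A receptor, and both subunits of the metabotropic GABA-B receptor (Gabbr1 and Gabbr2). They were chosen by name and found by symbol among 41128 genes, and all 7 passed the filter on low counts. RNA sequencing covered 9 libraries of dorsal telencephalon, the region that gives rise to the cerebral cortex and hippocampus, from P0 (day of birth) mice of the strain given as B6:129SF2/J. Of these, 3 libraries were labelled knockout (KO) for Tcf4, 3 heterozygous (Het) and 3 wild type (WT). Tcf4 encodes a basic helix-loop-helix transcription factor. The sources used here do not give which part of Tcf4 the mutant allele lacks, or whether a library was 1 pup or a pool. The comparisons ask how the receptor genes differ with the labelled gene dose of Tcf4.

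GABA-A receptors are chloride channels built as pentamers from alpha, beta and usually gamma subunits, and the alpha subunit shapes where the receptor sits and which drugs act on it. GABA-B receptors are G protein-coupled heterodimers, in which the Gabbr1 subunit binds GABA and the Gabbr2 subunit carries the complex to the cell surface and couples to the G protein. In the newborn cortex GABA often depolarises immature neurons, because the cells still hold much chloride, and the subunit mix of the receptors changes with maturation.

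Total counts ran from 26355671 to 29445788 in KO-labelled libraries, from 24008445 to 29398411 in Het-labelled libraries and from 22291940 to 23813314 in WT-labelled libraries. Levels are given in CPM, read counts scaled to library size with TMM factors, and in FPKM, the authors' values per gene length. Sums over marker lists leave out the TMM factors. Tcf4 itself had 638, 633 and 611 CPM in KO-labelled libraries, 822, 652 and 719 CPM in Het-labelled libraries and 712, 728 and 584 CPM in WT-labelled libraries. Its KO versus WT log2 fold change was -0.10 (edgeR adjusted p = 0.36; -0.20 and 0.046 without WT replicate 3) and its KO versus Het log2 fold change -0.22 (adjusted p = 0.13; -0.31 and 0.041 without Het replicate 2, -0.22 and 0.043 without WT replicate 3). The gene count thus does not check the labels, and every direction below rests on them. Reads over a deleted part are not visible in a count summed over the gene. KO replicate 3 stood apart with 2730 counts of Xist and 2 of Ddx3y, where the other 8 libraries had at most 3 and at least 794, so the libraries did not share 1 sex. Processed pseudogenes took 0.0804% to 0.0939% of counts in KO, 0.0917% to 0.10% in Het and 0.253% to 0.313% in WT. Mitochondrial genes took 0.716% to 0.771% in KO, 0.769% to 0.84% in Het and 1.01% to 1.14% in WT. The part of either share in the receptor results was not tested. Emx1, a marker of the dorsal telencephalon, had 54.3 to 63.5 CPM in KO, 48.5 to 56.3 CPM in Het and 36.3 to 43.1 CPM in WT. It is 1 of 15 excitatory neuron markers summed below. Of these, 6 were lower and 5 higher in KO than in WT (26.3% and 26.5% of all tested genes). Markers of other cell types also moved with the label, and their sums are given after the receptor partners.

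Since TCF4 and its partners bind the E-box, whose core is CANNTG, the 250 bases before the RefSeq start of each gene were searched for it (RefSeq, build GRCm38.p6). The motif reads the same on both strands. Gabra3 and Gabrb2 have 2 and 3 RefSeq windows and were left out of this count. Of the remaining 5 genes, Gabra2 and Gabra5 held the motif and Gabra4, Gabbr1 and Gabbr2 did not, against 66.2% of all 32851 such windows. The Gabbr2 window (46991715 to 46991964) lies partly inside the GENCODE gene, which starts at 46991873 on the minus strand. It is thus not all upstream sequence. The Gabra4 window (71658309 to 71658558) lies within Gabrb1 on the opposite strand. The sequences below are those of the alpha subunit gene with the largest fold change, of the alpha subunit gene with the largest difference between KO and Het, and of the most abundant of the 7 transcripts. They read 5' to 3' on the strand of the gene, end at the base before the start, and show each E-box in capitals.
Gabra2, chr5:71095850-71096099, minus strand: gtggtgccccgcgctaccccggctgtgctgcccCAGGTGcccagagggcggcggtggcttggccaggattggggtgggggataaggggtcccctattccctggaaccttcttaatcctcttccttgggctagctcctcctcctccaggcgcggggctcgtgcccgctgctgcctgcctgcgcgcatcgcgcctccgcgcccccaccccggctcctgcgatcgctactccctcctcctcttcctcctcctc
Gabra5, chr7:57510060-57510309, minus strand: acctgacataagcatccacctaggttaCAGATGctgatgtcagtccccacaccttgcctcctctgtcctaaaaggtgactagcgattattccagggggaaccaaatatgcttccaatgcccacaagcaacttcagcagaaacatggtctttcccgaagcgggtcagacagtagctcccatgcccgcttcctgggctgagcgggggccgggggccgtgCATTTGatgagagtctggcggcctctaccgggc
Gabbr1, chr17:37045716-37045965, plus strand: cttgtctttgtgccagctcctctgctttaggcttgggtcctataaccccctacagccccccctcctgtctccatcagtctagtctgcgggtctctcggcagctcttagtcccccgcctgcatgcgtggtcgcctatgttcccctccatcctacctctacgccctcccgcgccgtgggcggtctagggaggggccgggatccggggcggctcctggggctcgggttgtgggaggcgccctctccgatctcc
The Gabra2 window holds 1 E-box, CAGGTG, which starts 217 bases before the start site. CAGGTG or its reverse complement CACCTG was found in 17.2% of all windows. Gabra5 has 2 E-boxes, CAGATG and CATTTG, at 223 and 33 bases before the start. The Gabbr1 window has none. A match to these letters describes the sequence and does not show that a factor binds there.

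In the KO-labelled libraries, 6 of the 7 genes were lower than in the WT-labelled ones and none was higher, with edgeR's quasi-likelihood test and Benjamini-Hochberg adjustment over 15271 tested genes. The background is wide in this comparison, since 26.3% of all tested genes were called lower, 26.5% higher and 52.8% in either direction. In the Het-labelled libraries 5 of 7 were lower than in WT (23.4% of all genes lower, 22.5% higher, 45.9% in either direction). Between KO and Het, 3 of 7 were lower in KO (8.44% of all genes lower, 8.3% higher, 16.7% in either direction). The median log2 fold change of the 7 genes was -0.52 for KO versus WT, -0.32 for Het versus WT and -0.20 for KO versus Het, where the median of all tested genes was 0.009, 0.013 and 0.004. KO versus WT and Het versus WT share their WT libraries, so the first 2 counts are not independent. The KO versus WT count was again 6 without KO replicate 3.

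**Figure D1:**
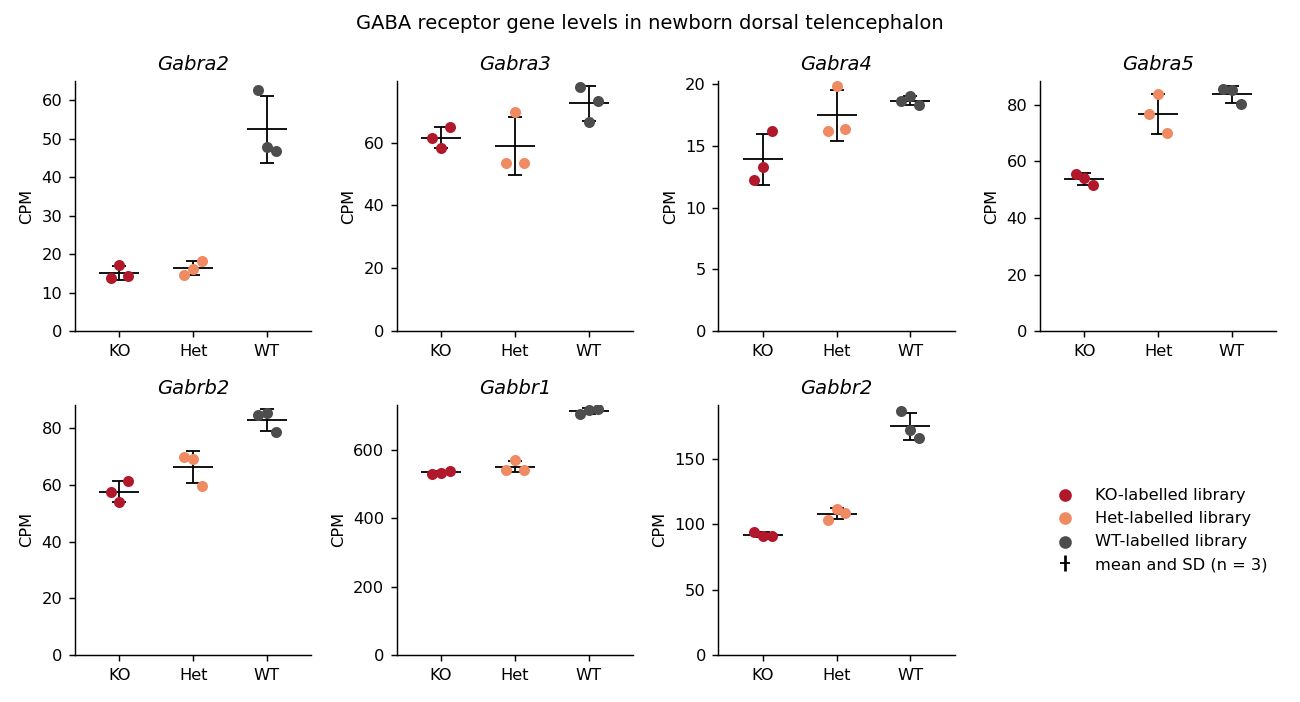
Level of each of the 7 GABA receptor genes in CPM (linear axes from 0) by genotype label, with 1 point per library and the mean and SD of 3 libraries. Gabra2 shows the widest gap, at 13.9 to 17.2 CPM in KO and 14.6 to 18.3 CPM in Het, all below the 46.8 to 62.6 CPM of WT, and Gabra5 is set apart by KO libraries (51.6 to 55.6 CPM) that lie below Het (70.0 to 84.0 CPM) and WT (80.4 to 85.5 CPM).

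Gabra2 (ENSMUSG00000000560, chromosome 5, 70957597 to 71095849, mm10) encodes the alpha-2 subunit, which is abundant in the young forebrain and at synapses on the axon initial segment. It had 13.9, 17.2 and 14.4 CPM in KO-labelled libraries, 14.6, 16.1 and 18.3 CPM in Het-labelled libraries and 62.6, 48.0 and 46.8 CPM in WT-labelled libraries. KO and Het libraries overlapped and lay far below all 3 WT libraries. The gene was 3.46-fold lower in KO than in WT (n = 3 per group, log2 fold change -1.79, SE 0.12, adjusted p = 7.7e-08) and 3.20-fold lower in Het than in WT (-1.68, SE 0.12, adjusted p = 2.3e-07). KO and Het differed by -0.11 (SE 0.13, adjusted p = 0.62), a difference the test did not resolve.

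Gabra5 (ENSMUSG00000055078, chromosome 7, 57407672 to 57510059) encodes the alpha-5 subunit of extrasynaptic receptors that carry tonic inhibition in the hippocampus. Its levels were 55.6, 54.3 and 51.6 CPM in KO-labelled libraries, 76.7, 84.0 and 70.0 CPM in Het-labelled libraries and 85.5, 85.4 and 80.4 CPM in WT-labelled libraries. Here the KO libraries lay below both other groups, and Het and WT overlapped. The gene fell in KO against WT by 0.64 on the log2 scale (SE 0.07, adjusted p = 5.9e-07) and in KO against Het by 0.51 (SE 0.07, adjusted p = 4.4e-05). Het against WT gave -0.12 (SE 0.07, adjusted p = 0.14), and this passed the threshold without Het replicate 2 (-0.18, adjusted p = 0.041). Gm9962, with 1 to 15 counts per library, overlaps Gabra5 on the opposite strand, and the sources used here do not say whether counting used strand, so reads of the 2 strands may not be fully separated.

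Gabra4 (ENSMUSG00000029211, chromosome 5, 71569749 to 71658308) encodes the alpha-4 subunit, which pairs with delta in extrasynaptic receptors of the thalamus and dentate gyrus. It was the least abundant of the 7 genes per length. It had 12.2, 13.3 and 16.2 CPM in KO-labelled libraries, 16.2, 19.8 and 16.3 CPM in Het-labelled libraries and 18.6, 19.0 and 18.3 CPM in WT-labelled libraries. All KO values lay below all WT values, with KO replicate 3 closest to the other groups. The gene was lower in KO than in WT (log2 fold change -0.42, SE 0.11, adjusted p = 0.0035), and Het against WT gave -0.09 (SE 0.11, adjusted p = 0.50). The KO versus Het difference of -0.33 (SE 0.11) only just passed, at adjusted p = 0.045. It was lost without KO replicate 1 or 2, Het replicate 2 or any 1 of the WT libraries, with adjusted p from 0.0087 to 0.22 over the 9 libraries left out in turn. The first bases of Gabra4 overlap those of Gabrb1 on the opposite strand.

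Gabra3 (ENSMUSG00000031343, X chromosome, 72432681 to 72656848) encodes the alpha-3 subunit, an early subunit of the developing cortex whose level drops with maturation. It had 61.4, 58.3 and 64.9 CPM in KO-labelled libraries, 53.5, 69.6 and 53.6 CPM in Het-labelled libraries and 77.7, 66.4 and 73.2 CPM in WT-labelled libraries. KO and WT did not overlap, whereas Het replicate 2 lay among the WT libraries. The gene was the one member that missed the threshold in KO versus WT (-0.23, SE 0.10, adjusted p = 0.056). It was called lower in Het versus WT (-0.30, SE 0.10, adjusted p = 0.023). Both calls sit at the threshold. The KO versus WT value passed without Het replicate 1 (adjusted p = 0.044), Het replicate 2 (0.0092) or WT replicate 2 (0.028). The Het versus WT call was lost without Het replicate 1 or 3 or WT replicate 1 or 3, with adjusted p from 0.00045 to 0.10 over the 9 libraries. Without KO replicate 3, the library with Xist, KO versus WT gave -0.27 (adjusted p = 0.056). KO against Het gave 0.06 (SE 0.10, adjusted p = 0.73). Gm14735 and Gm23461, with at most 10 and 0 counts in any library, overlap Gabra3 on the opposite strand.

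Gabrb2 (ENSMUSG00000007653, chromosome 11, 42419757 to 42629028) encodes the beta-2 subunit, part of the receptor type most common in the adult brain. Its values were 57.5, 53.9 and 61.4 CPM in KO-labelled libraries, 69.9, 69.3 and 59.6 CPM in Het-labelled libraries and 84.7, 85.4 and 78.6 CPM in WT-labelled libraries. WT lay above both other groups, and Het replicate 3 fell among the KO libraries. The gene was lower in KO than in WT by 1.44-fold (log2 fold change -0.52, SE 0.07, adjusted p = 9.4e-06) and lower in Het than in WT by 1.25-fold (-0.32, SE 0.07, adjusted p = 0.0013). KO against Het gave -0.20 (SE 0.07, adjusted p = 0.060), which passed without KO replicate 3 (adjusted p = 0.033) or Het replicate 3 (0.013).

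Gabbr2 (ENSMUSG00000039809, chromosome 4, 46662305 to 46991873) showed a stepwise order of the 3 labels. It had 94.3, 90.6 and 91.2 CPM in KO-labelled libraries, 103, 112 and 109 CPM in Het-labelled libraries and 187, 172 and 166 CPM in WT-labelled libraries. No groups overlapped, with Het closer to KO than to WT. The gene was 1.90-fold lower in KO than in WT (log2 fold change -0.92, SE 0.05, adjusted p = 5.3e-10) and 1.62-fold lower in Het than in WT (-0.69, SE 0.05, adjusted p = 3.1e-08). KO was lower than Het by 1.17-fold (-0.23, SE 0.05, adjusted p = 0.0070).

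Gabbr1 (ENSMUSG00000024462, chromosome 17, 37045966 to 37075067), whose product binds GABA, had 530, 531 and 539 CPM in KO-labelled libraries, 540, 569 and 542 CPM in Het-labelled libraries and 704, 716 and 720 CPM in WT-labelled libraries. The replicates agreed closely, and KO and Het lay well below WT. The gene was 1.34-fold lower in KO than in WT (log2 fold change -0.42, SE 0.05, adjusted p = 1.5e-06) and 1.30-fold lower in Het than in WT (-0.37, SE 0.05, adjusted p = 8.4e-06). KO against Het gave -0.05 (SE 0.05, adjusted p = 0.58).

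**Figure D2:**
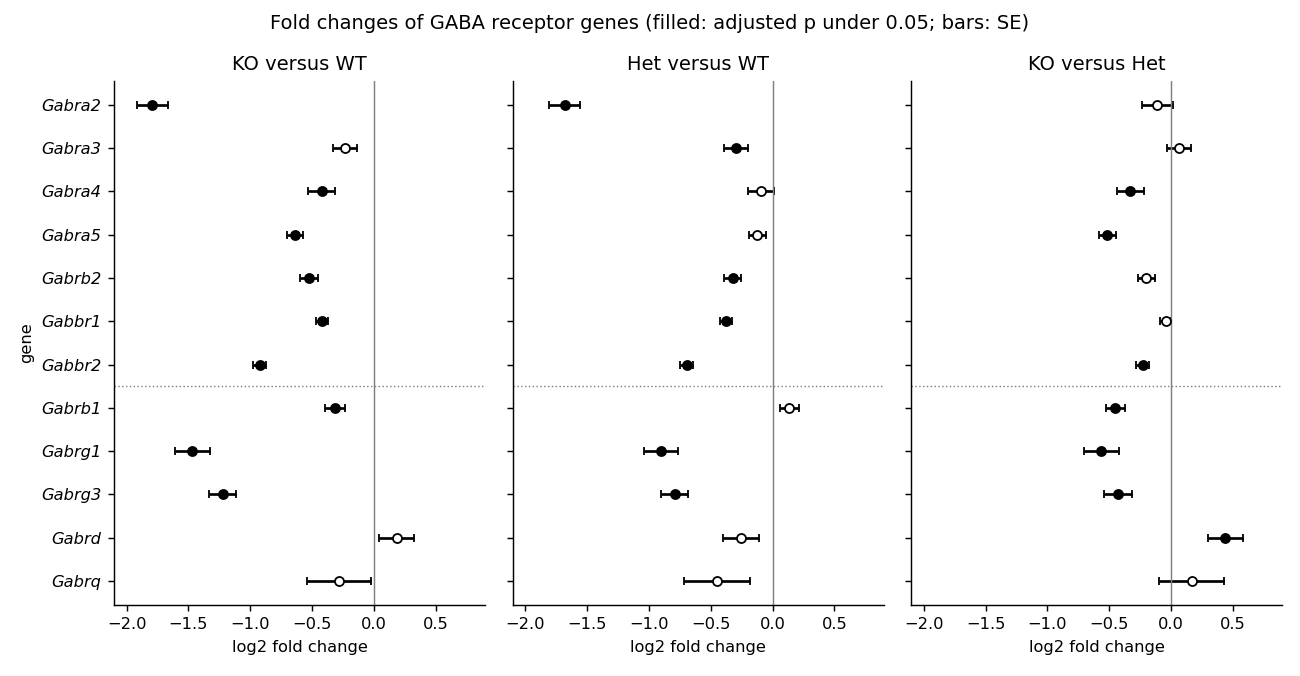
Log2 fold change with SE of the 7 genes (above the dotted line) and of 5 other GABA-A subunit genes (below it) in KO versus WT, Het versus WT and KO versus Het. Filled points have an edgeR adjusted p under 0.05, Gabra2 lies near -1.7 in both comparisons with WT and near 0 between KO and Het, and Gabra5 lies near -0.5 between KO and Het.

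Per length, Gabbr1 was the highest of the 7 genes at 301 ± 7.5 FPKM in KO, 313 ± 6.9 FPKM in Het and 392 ± 2.4 FPKM in WT (SD, n = 3 each). Below it in WT came Gabbr2 at 55.6 ± 4.0 FPKM, Gabrb2 at 41.8 ± 2.0 FPKM, Gabra3 at 35.2 ± 3.2 FPKM, Gabra5 at 30.9 ± 1.3 FPKM, Gabra2 at 21.5 ± 3.9 FPKM and Gabra4 at 4.43 ± 0.086 FPKM. Gabra3 and Gabra5 overlapped in WT. In KO the order ran from Gabra3 (30.7 ± 2.1 FPKM), Gabbr2 (30.0 ± 0.62 FPKM) and Gabrb2 (29.8 ± 2.4 FPKM), which overlapped one another, to Gabra5 (20.4 ± 0.50 FPKM), Gabra2 (6.37 ± 0.72 FPKM) and Gabra4 (3.39 ± 0.55 FPKM). In Het, Gabbr2, Gabrb2, Gabra3 and Gabra5 lay between 27.0 and 36.5 FPKM and each overlapped its neighbour. The order between genes leans on the length the authors used. Gabbr1 was divided by 1782 bases where its longest GENCODE transcript has 5248, and Gabbr2 by 3079 where the longest has 5750.

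The mix of alpha subunits, as shares of the summed FPKM of Gabra2 to Gabra6, differed between labels through Gabra2, Gabra3 and Gabra5. Gabra2 made up 9.63%, 12.03% and 9.78% of this sum in KO-labelled libraries, 9.33%, 8.67% and 11.8% in Het-labelled libraries and 25.8%, 22.4% and 21.6% in WT-labelled libraries. Gabra3 made up 50.4% ± 2.0 in KO, 42.04% ± 2.1 in Het and 38.3% ± 1.7 in WT (SD, n = 3 each). Gabra5 made up 33.5% ± 1.7 in KO, 41.9% ± 1.9 in Het and 33.7% ± 2.1 in WT, and its Het libraries lay above all others. Gabra4 stayed under 6.4% in every library. The share of Gabra2 did not overlap between KO and WT or between Het and WT, and that of Gabra3 did not overlap between any groups. In each such case the two-sided exact permutation test gave p = 0.10, the smallest that 3 against 3 libraries allow, before adjustment over 15 comparisons of shares. A share can change because another subunit does, and the log2 fold change of Gabra3 itself was -0.23 for KO versus WT (adjusted p = 0.056). With the longest GENCODE transcript as length, Gabra5 led with 46.9% in KO, 55.5% in Het and 48.6% in WT, and Gabra3 had 39.1%, 30.9% and 30.6%.

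The 2 GABA-B subunits shifted against each other. The ratio of Gabbr1 to Gabbr2 FPKM was 9.72, 10.1 and 10.2 in KO-labelled libraries, 9.02, 8.80 and 8.61 in Het-labelled libraries and 6.53, 7.21 and 7.49 in WT-labelled libraries. No groups overlapped, with log2 differences of 0.50 for KO versus WT, 0.32 for Het versus WT and 0.19 for KO versus Het. Each had an exact two-sided permutation p of 0.10, the smallest possible. With the longest transcripts as lengths the mean ratio was 6.35 in KO, 5.59 in Het and 4.49 in WT, so the size of the ratio depends on the length while its order over the labels did not.

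**Figure D3:**
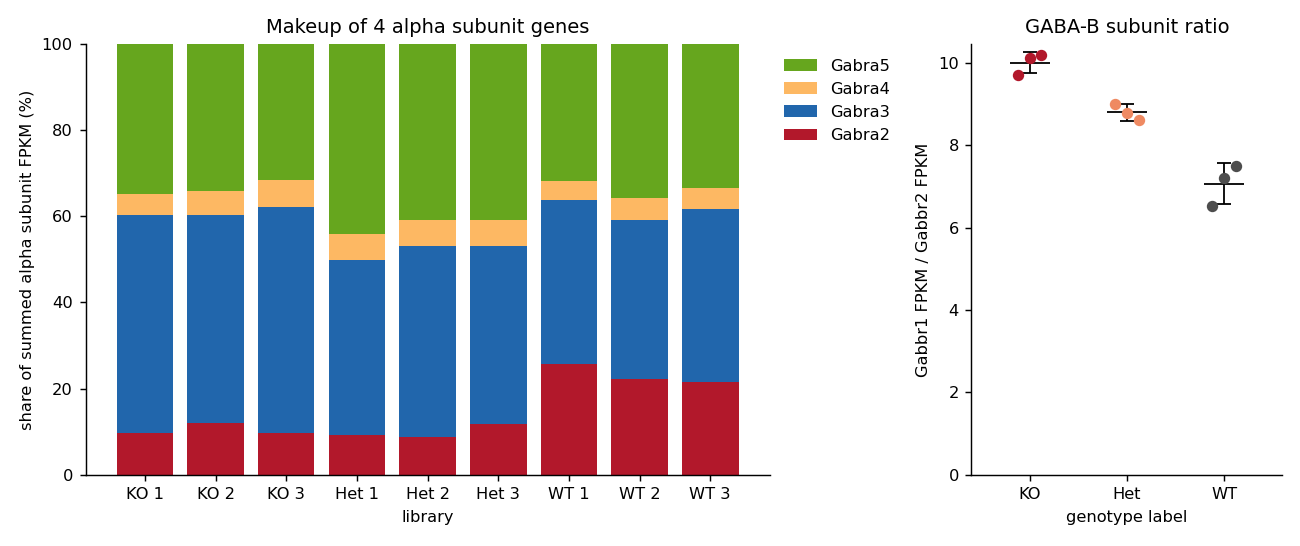
Left, share (percent) of 4 alpha subunit genes in the summed FPKM of Gabra2 to Gabra6 in each library, with Gabra6 (under 0.1%) not visible, and right, ratio of Gabbr1 to Gabbr2 FPKM per library with the mean and SD of 3 libraries, on an axis from 0. The Gabra2 band covers 8.67% to 12.03% of KO and Het bars and 21.6% to 25.8% of WT bars, and the ratio is highest in KO and lowest in WT.

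Of 11 further GABA-A subunit genes, 5 passed the filter, and 3 of these were lower in KO than in WT and none higher (26.3% and 26.5% of all tested genes). Het versus WT had 2 lower and none higher (23.4% and 22.5% of all genes). KO versus Het had 3 lower and 1 higher (8.44% and 8.3% of all genes), with 1 lower without KO replicate 1 or Het replicate 2. Their median log2 fold change was -0.31, -0.45 and -0.43 in the 3 comparisons. Gabrg1, a gamma subunit gene also active in glia, gave -1.47 for KO versus WT, -0.90 for Het versus WT and -0.57 for KO versus Het (adjusted p = 1.9e-07, 4.6e-05 and 0.011), and the last call was lost without KO replicate 1 or 2 or Het replicate 2. Gabrg3 gave -1.22, -0.79 and -0.43 in the same order (adjusted p = 1.1e-07, 1.8e-05 and 0.014), the last lost without KO replicate 1 or Het replicate 2.

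The beta subunit gene Gabrb1 was lower in KO than in WT (-0.31, adjusted p = 0.0030) and than in Het (-0.45, adjusted p = 0.00070), with 0.14 for Het versus WT (adjusted p = 0.16). Gabrd, the delta subunit gene, was the 1 gene called higher in KO than in Het (0.44, adjusted p = 0.043), at 4.99, 6.44 and 5.91 CPM in KO and 3.94, 4.64 and 4.19 CPM in Het. That call was lost without any 1 of KO replicates 2 and 3, the 3 Het libraries and WT replicate 3. Gabrq, the theta subunit gene, did not pass in any comparison (adjusted p from 0.18 to 0.74). Summed over both GABA-B genes, FPKM came to 331 ± 7.7 in KO, 349 ± 8.0 in Het and 448 ± 4.6 in WT (SD, n = 3 each).

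Some of these genes sit in clusters, and neighbours had values of different size. On chromosome 5, Gabrg1, Gabra2, Gabra4 and Gabrb1 lie in this order between 70751047 and 72149037, and their KO versus WT values were -1.47, -1.79, -0.42 and -0.31. Between KO and Het, Gabra2 gave -0.11 while the other 3 gave -0.57, -0.33 and -0.45. On chromosome 7, Gabrg3 gave -1.22 and Gabra5 -0.64 for KO versus WT. Differences between neighbours were not tested.

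Over the 9 libraries, the profiles of the 7 genes, as log2 CPM centred on each gene's mean, were most alike for Gabrb2 and Gabbr1, with a root mean square difference of 0.10. Gabra2 was farthest from the rest, with 0.45 to Gabbr2 and 0.65 to 0.72 to the other 5. Among 12636 genes with a mean log2 CPM of at least 1, the profile nearest to that of Gabra2 was Slc4a4, a bicarbonate transporter gene, at 0.19, followed by Rsph1 at 0.20. Slc4a4 is also on the astrocyte marker list summed below. Slc4a4 had 25.8, 23.3 and 24.1 CPM in KO, 26.5, 23.9 and 25.9 CPM in Het and 78.6, 62.5 and 67.9 CPM in WT. Nearest to Gabbr2 were Snph, which encodes the axonal mitochondrial anchor syntaphilin, and Grm5, a metabotropic glutamate receptor gene, both at 0.06. Grm5 had 124, 131 and 130 CPM in KO, 152, 168 and 157 CPM in Het and 253, 260 and 231 CPM in WT. Nearest to Gabbr1 were Agpat3 and Stk11ip at 0.03, and nearest to Gabra5 were Nol10 at 0.06 and Ssx2ip at 0.08. Gabra3 had Prepl at 0.06 and Nap1l3 at 0.07, Gabra4 had Pno1 at 0.06 and Rbm12 at 0.07, and Gabrb2 had Tmem167 and Hacd3 at 0.05. These distances describe 9 libraries that share 3 labels, and with so many genes some profiles will lie close.

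Genes that make, load and clear GABA were mostly lower in KO and Het than in WT. All 8 tested of 9 listed were lower in KO than in WT (26.3% of all tested genes), and 7 were lower in Het than in WT (23.4% of all genes). With each library left out in turn, the KO versus WT count ran from 6 to 8 and the Het versus WT count stayed at 7. The median log2 fold changes were -1.11 and -0.93. Between KO and Het 2 were lower and 1 higher (8.44% and 8.3% of all genes), with 1 lower without any 1 of the KO or Het libraries. The higher one was lost without any 1 of the KO libraries, Het replicate 2 or 3 or WT replicate 3, and 2 were higher without WT replicate 2. Slc32a1, the vesicular GABA transporter, had 34.2, 27.9 and 28.2 CPM in KO, 31.4, 34.4 and 29.4 CPM in Het and 85.2, 71.9 and 87.1 CPM in WT (KO versus WT -1.44, SE 0.09, adjusted p = 5.1e-09). Slc6a11, a GABA transporter of astrocytes, had 73.4, 67.2 and 79.7 CPM in KO, 104, 108 and 113 CPM in Het and 257, 252 and 244 CPM in WT, with no overlap of groups. It was lower in KO than in WT (-1.77, SE 0.06, adjusted p = 6.9e-13) and than in Het (-0.56, adjusted p = 5.7e-06). The GABA-synthesising enzyme genes gave -1.08 for Gad1 (adjusted p = 0.00021) and -0.30 for Gad2 (adjusted p = 0.037) in KO versus WT. Neither was followed singly with libraries left out. Slc6a13, a GABA transporter gene of the meninges, had only 2, 1 and 4 counts in KO, 12, 15 and 11 in Het and 26, 4 and 6 in WT, and its KO versus WT call (adjusted p = 0.0079) was lost without WT replicate 1 (adjusted p = 0.13).

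The partners of the GABA-B receptor were 14 genes of auxiliary subunits, potassium channels and G protein signalling. In KO versus WT 9 were lower and none higher (26.3% and 26.5% of all tested genes). Het versus WT likewise had 9 and none (23.4% and 22.5% of all genes). With each library left out in turn, 6 to 9 were lower in KO versus WT. In Het versus WT 7 to 9 were then lower and 0 to 1 higher. The medians of the partners were -0.26 and -0.30. KO versus Het had 3 lower and 3 higher (8.44% and 8.3% of all genes). This became 1 lower without KO replicate 2 or 3 or Het replicate 1 or 2, and 1 higher without KO replicate 1. Kctd8, an auxiliary subunit gene that shapes receptor kinetics, had 2.16, 2.06 and 1.46 CPM in KO, 3.16, 3.65 and 2.35 CPM in Het and 11.1, 8.46 and 11.96 CPM in WT (KO versus WT -2.48, SE 0.20, adjusted p = 2.6e-08). Kcnj6, a potassium channel gene whose product the receptor opens, had 2.09, 1.68 and 2.52 CPM in KO, 2.71, 2.67 and 2.97 CPM in Het and 6.73, 6.50 and 5.12 CPM in WT (-1.54, SE 0.18, adjusted p = 2.0e-06). Kcnj5, of the same channel family, gave -0.64 for KO versus WT (SE 0.21, adjusted p = 0.016), a call lost without KO replicate 3 (adjusted p = 0.073) or WT replicate 3 (0.051). Gnao1, the G protein subunit gene most abundant in brain, gave -0.38 for KO versus WT and -0.37 for Het versus WT (adjusted p = 7.7e-06 and 1.4e-05).

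Of the 17 scaffold, adhesion and trafficking genes of GABA-A synapses, 8 were lower and 4 higher in KO versus WT (26.3% and 26.5% of all tested genes). In Het versus WT 7 were lower and 1 higher (23.4% and 22.5% of all genes). With each library left out in turn, 8 to 9 were lower in KO and 6 to 7 in Het than in WT. In KO versus Het 2 were lower and 5 higher (8.44% and 8.3% of all genes), with 3 higher without KO replicate 1 or 2. Nsf, an ATPase of vesicle fusion that also binds receptor-trafficking proteins, gave -0.67 for KO versus WT (SE 0.07, adjusted p = 9.7e-07), and Iqsec3, a gephyrin-binding exchange factor, gave -0.59 (SE 0.08, adjusted p = 1.1e-05). Gphn, which encodes the scaffold gephyrin itself, was lower in KO (-0.31, adjusted p = 0.0020) and in Het (-0.35, adjusted p = 0.00095) than in WT. In the other direction, Slitrk3, a postsynaptic adhesion gene of inhibitory synapses, had 38.2, 42.2 and 37.2 CPM in KO, 31.2, 27.3 and 23.3 CPM in Het and 28.6, 24.9 and 24.7 CPM in WT. It was higher in KO than in WT by 1.504-fold (log2 fold change 0.59, SE 0.10, adjusted p = 0.00010).

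Of 10 tested genes of chloride transport and its kinases, 3 were lower and 2 higher in KO versus WT (26.3% and 26.5% of all tested genes). In Het versus WT 3 were lower and 1 higher (23.4% and 22.5% of all genes), and none was called between KO and Het (16.7% of all genes). With each library left out in turn, 2 to 3 were lower in Het versus WT. The 2 higher in KO became 1 without any 1 of the KO libraries or WT replicate 1 or 3, the 1 higher in Het became 2 without KO replicate 3, and KO versus Het had 1 lower without KO replicate 3 and 2 lower without Het replicate 2. Slc12a5, the chloride extruder whose rise turns GABA responses inhibitory, had 81.2, 74.0 and 72.7 CPM in KO, 70.2, 95.9 and 74.5 CPM in Het and 199, 155 and 181 CPM in WT (KO versus WT -1.23, SE 0.13, adjusted p = 0.00010). Slc12a2, the chloride importer of immature neurons, gave 0.08 for KO versus WT (SE 0.09, adjusted p = 0.53). Slc12a7, a further chloride extruder gene, was higher in KO and in Het than in WT, by 1.07 in KO (SE 0.10, adjusted p = 1.9e-07) and 1.29 in Het (adjusted p = 3.7e-08) on the log2 scale. Slc12a4, of the same family, gave -0.33 for KO versus WT (adjusted p = 0.0067).

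Glycine receptors, the other pentameric chloride channels of inhibition, showed a gene that stood out upwards. Glra2, the subunit gene of the embryonic receptor, had 177, 186 and 183 CPM in KO, 83.9, 97.9 and 84.4 CPM in Het and 66.3, 61.5 and 66.5 CPM in WT. No groups overlapped, and it was higher in KO than in WT by 2.81-fold (log2 fold change 1.49, SE 0.06, adjusted p = 7.4e-12), in Het than in WT (0.45, adjusted p = 1.6e-05) and in KO than in Het (1.04, adjusted p = 6.4e-09). The beta subunit gene Glrb was lower in KO than in WT (-0.58, SE 0.06, adjusted p = 6.0e-07). Glra3 gave -1.25 for KO versus WT at the threshold (adjusted p = 0.050, lost without any 1 of 7 libraries).

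**Figure D4:**
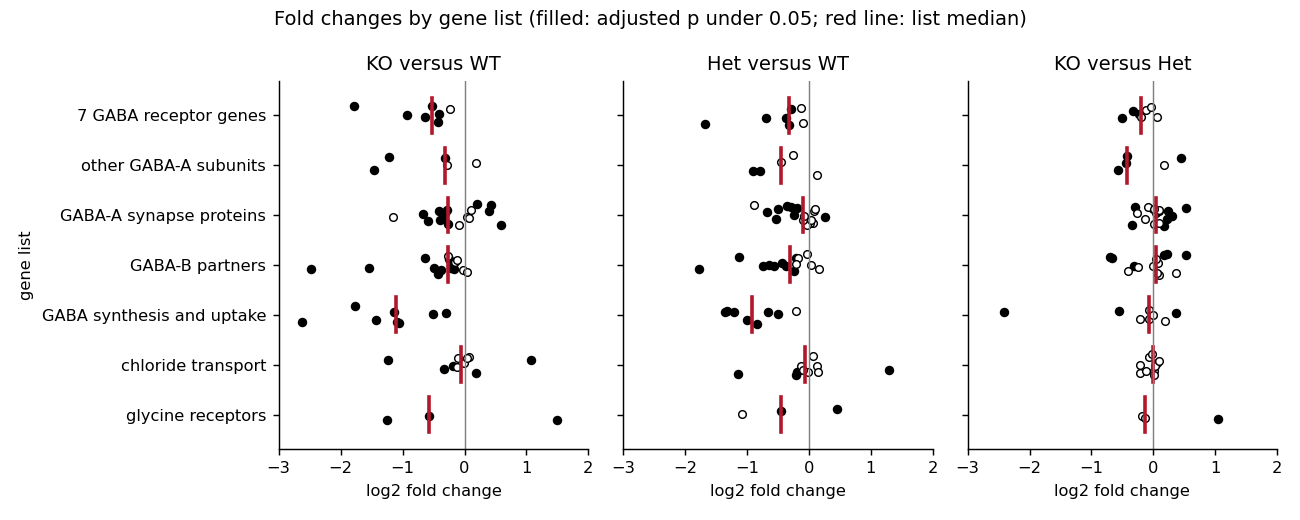
Log2 fold change of every tested gene in 7 lists (rows) for the 3 comparisons, with 1 point per gene, filled where the edgeR adjusted p is under 0.05, and the list median as a red line. The medians for KO versus WT run from -1.11 for GABA synthesis and uptake over -0.52 for the 7 GABA receptor genes to -0.05 for chloride transport, and the rightmost point of that panel is Glra2 at 1.49.

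Cell type markers moved with the same labels, and in a bulk sample fewer cells of a type and less RNA per cell cannot be told apart. Markers of striatal projection neurons, whose region borders the dissected one, summed to 706 to 726 CPM in KO, 578 to 648 CPM in Het and 1139 to 1204 CPM in WT. Of these 18 genes, 16 were lower and 1 higher in KO versus WT, and 18 were lower in Het versus WT. Beside this and the marker counts below, 26.3% of all tested genes were lower and 26.5% higher in KO versus WT. For Het versus WT the shares were 23.4% and 22.5%. The striatal marker Isl1 had 3, 0 and 4 counts in KO, 0, 1 and 2 in Het and 315, 253 and 268 in WT. Its KO versus WT log2 fold change of -7.15 was the lowest of the striatal list, whose median was -2.62. Drd1 was not called (-0.43, edgeR adjusted p = 0.13), and Meis2 was the 1 called higher (0.18). Cortical interneuron markers, 18 genes of the main GABA-producing cells of the cortex, summed to 879 to 1003 CPM in KO, 1042 to 1098 CPM in Het and 1164 to 1247 CPM in WT. Astrocyte markers summed to 824 to 887 CPM in KO, 821 to 885 CPM in Het and 1289 to 1371 CPM in WT. Of 12 astrocyte genes 9 were lower in KO and 11 in Het than in WT.

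Oligodendrocyte lineage markers summed to 233 to 276 CPM in KO, 246 to 250 CPM in Het and 454 to 475 CPM in WT, and of 11 genes 11 were lower in KO and 10 in Het than in WT. Microglia and macrophage markers summed to 80.9 to 85.4 CPM in KO, 74.9 to 79.4 CPM in Het and 122 to 142 CPM in WT, with 7 of 10 genes lower in KO and 8 in Het. Markers of Cajal-Retzius cells, the Reln-producing cells of the cortical surface, were at 727 to 783 CPM in KO, 789 to 1020.0 CPM in Het and 467 to 541 CPM in WT, with 8 of 9 genes higher than WT in KO and in Het. Endothelial markers were at 300.0 to 309 CPM in KO, 268 to 308 CPM in Het and 220.2 to 224 CPM in WT, with 5 of 10 genes higher and 1 lower in KO and 8 higher in Het than in WT.

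Markers of cortical excitatory neurons were at 3387 to 3496 CPM in KO, 3524 to 3974 CPM in Het and 3411 to 3811 CPM in WT. On this scale WT overlapped both other labels and KO lay below Het. The TMM factors were 0.9958 to 1.0234 in KO and 0.97 to 0.994 in WT, so the overlap of KO and WT depends on the scale. Of the 15 excitatory neuron genes 6 were lower and 5 higher in KO than in WT. Intermediate progenitor markers had 554 to 604 CPM in KO, 345 to 380 CPM in Het and 225 to 240 CPM in WT, and all 9 tested were higher in KO than in WT, with 7 higher and 1 lower in Het than in WT. Radial glia markers had 1363 to 1461 CPM in KO, 1252 to 1412 CPM in Het and 1426 to 1502 CPM in WT. By gene, most calls went the other way from this sum. Of 11 radial glia genes 6 were higher and 2 lower in KO than in WT, and 5 higher and 3 lower in Het than in WT. Choroid plexus markers were at 27.8 to 48.2 CPM in KO, 15.9 to 33.2 CPM in Het and 19.7 to 21.6 CPM in WT. Of 6 tested choroid plexus genes 2 were higher and 0 lower in KO than in WT, and 1 higher and 1 lower in Het. Red blood cell markers were at 298 to 366 CPM in KO, 214 to 311 CPM in Het and 188 to 351 CPM in WT. Like Gabra2, the astrocyte and oligodendrocyte sums overlapped in KO and Het and were lower than in WT, and the striatal and microglial sums were also lower in KO and Het than in WT but higher in KO than in Het. The part of these markers in the receptor results was not tested.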

How the data were processed

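The authors deposited read counts per gene for 9 libraries, and FPKM values that equal those counts divided by 1 length per gene and by the library total (largest log2 difference 2.8e-14), so the deposited FPKM values are no independent measurement. Per the submitters' processing notes, the build was mm10 and the tools included HTSeq 0.6.1, TopHat2 2.0.9, Bowtie2 2.0.6 and DESeq 1.10.1, with no role given. The sources used here do not say how strand and multiply mapped reads were treated. Of 41128 genes, 40254 were paired with a symbol in GENCODE M21.

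The counts were fitted in R 4.3.3 with edgeR 4.0.16, and limma 3.58.1 was used for alternatives. The filterByExpr filter (minimum count 10, minimum total 15) kept 15271 genes with 99.9% of the reads. A robust quasi-likelihood model over the 9 libraries, with TMM scaling and 1 coefficient per label (6 residual degrees of freedom) gave log2 fold changes, and a gene was called at a Benjamini-Hochberg adjusted p under 0.05 over all genes tested. The SE is the log2 fold change divided by the square root of F. Shares and ratios were computed from FPKM and tested with exact two-sided permutation tests (scipy 1.17.1), which with 3 against 3 cannot go below 0.10. Labels do not say whether libraries came from separate pups or litters, so p-values speak only of the spread between these samples, which may be technical. The fit was also run on simulated counts in which far fewer genes changed than were called here. That run cannot show how the fit behaves under such wide change.

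The 7 genes, the lists and the tests were chosen with earlier results of these data known. Some genes of the family that the rule took are not reported here, and they were left out of lists, shares and figures. Named were all members, the remaining tested GABA-A subunit genes, up to 3 called genes of each other list by size of the KO versus WT change, the 2 nearest profiles of each member and Tcf4. Gphn, Gnao1, Gad1, Gad2 and Slc12a2 were named after their values were seen, for their known roles. Emx1 and Isl1 were named as markers of a region or cell type. At most 4.21% of the 31-base words of a member occur in transcripts of another gene. Alternatives were other scalings and filters, DESeq2 1.42.0, limma on log2(FPKM + 1) and log2(FPKM + 0.1), only the labels compared, a replicate block and leaving out each library. The use of the longest GENCODE transcript as length was chosen after seeing the data. So was the repeat of all alternatives on other named genes and on the lists other than those of cell types. Gphn, Gnao1, Gad1, Gad2, Slc12a2, Emx1, Isl1 and the nearest profiles were not followed singly through the alternatives. Figures were drawn with matplotlib 3.10.9.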

Additional observations from a re-analysis of the deposited data

How the results depend on the processing

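Gabra2, Gabrb2, Gabbr1 and Gabbr2 kept their direction and their call in KO versus WT and Het versus WT under every alternative run, and Gabra5 and Gabra4 kept theirs in KO versus WT. Over all alternatives the number of members called ran from 6 to 7 in KO versus WT, from 4 to 6 in Het versus WT and from 2 to 4 in KO versus Het. The cause of the changes below was not tested.

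Gabra3 in KO versus WT passed the threshold with DESeq2 size factors (-0.24), no filter (-0.22), the filter of 1 CPM in 3 libraries (-0.25), DESeq2 (-0.24) and only the labels compared (-0.23), and ranged from -0.29 to -0.18 over libraries left out. In Het versus WT it missed with library totals (-0.25) and limma with either pseudocount (-0.25 with 1 and -0.25 with 0.1), with -0.42 to -0.22 over libraries left out. In KO versus Het it ranged from -0.01 to 0.19, with -0.01 without Het replicate 1 and -0.0049 without Het replicate 3. Gabrb2 in KO versus Het passed with upper-quartile factors (-0.21), no filter (-0.20) and 1 CPM (-0.21), and ranged from -0.28 to -0.16. Gabra4 in KO versus Het missed with limma (-0.27 with a pseudocount of 1, -0.34 with 0.1) and only the labels compared (-0.34), and ranged from -0.46 to -0.24. Gabra5 in Het versus WT ranged from -0.18 to -0.051. The genes called in KO versus Het numbered 2556, and 1432 to 2561 over libraries left out, with 1467 without KO replicate 1 and 1432 without KO replicate 2.

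Deviations of same-numbered libraries from their group means correlated from -0.106 to 0.084. The labels do not say what a replicate number marks. Libraries with different numbers were not compared in this way, so pairing by number was not tested. With the replicate block 6, 4 and 2 members were called in the 3 comparisons, with Gabra3 in Het versus WT at -0.30 (adjusted p = 0.051) and Gabra4 in KO versus Het at -0.33 (adjusted p = 0.056) missing the threshold.

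Differences in alpha subunit share, in percentage points, moved with the length. With the longest transcript, KO versus WT gave -7.78 for Gabra2 and 8.54 for Gabra3, and Het versus WT gave -8.39 for Gabra2 and 0.28 for Gabra3. Without division by length, KO versus WT gave 1.38 for Gabra4 and 0.36 for Gabra5 (reversed from -0.16), and Het versus WT 2.05 for Gabra4. Small differences changed sign or came to 0 with 1 library left out. They were Gabra2 in KO versus Het (-0.23 to 1.48, below 0 without KO replicate 2 or, at -0.095, Het replicate 2), Gabra5 in KO versus WT (-1.12 to 0.93, above 0 without WT replicate 2 or, at 0.83, KO replicate 3) and Gabra6 in KO versus WT (0.0 to 0.030, with 0.0 without KO replicate 2).

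Among the other genes followed singly through the alternatives, only uncalled values changed sign. In Het versus WT these were Slc6a13 (0.17 with limma and a pseudocount of 0.1, and -0.62 to 1.05 over libraries left out), Slitrk3 (-0.028 without Het replicate 1) and Kcnj5 (-0.049 to 0.12, with -0.037 without WT replicate 2). In KO versus Het they were Glra3 (0.080 with limma and a pseudocount of 0.1, -0.68 to 0.75 over libraries left out) and Slc12a5 (-0.17 to 0.060, the highest without Het replicate 2).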

Other observations

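Several subunit genes of the pathway were close to absent in the newborn tissue. Gabra6, the alpha subunit gene of cerebellar granule cells, had 0, 2 and 0 counts in KO-labelled libraries, 2, 4 and 2 in Het-labelled libraries and 0 in each WT-labelled library. The rho subunit genes of the retina had at most 6 counts in any library, and Gabrr3 and Gabrp had 0 in all 9. Gabre, the epsilon subunit gene beside Gabra3 on the X chromosome, had 3, 6 and 3 counts in KO, 3, 4 and 3 in Het and 7, 2 and 13 in WT. Glra1, the glycine receptor alpha subunit gene of the adult spinal cord, had 0, 3 and 1 counts in KO, 0, 1 and 0 in Het and 1, 6 and 2 in WT. At such counts differences between labels were not detectable.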
